A study of Mus musculus with 1298 samples.

Results

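The genes described here are 47 genes of the sarcomere and of excitation-contraction coupling, followed across muscle progenitors, myocytes and the other cells of the *Pax7* lineage by embryonic day. They were taken by name from a list. All 47 are among the 17634 genes of the 10× table and the 22938 genes of the bulk table, and 45 are among the 22894 genes of the Smart-seq2 (ss2) table, where *Lmod2* and *Xirp1* are not listed. By role, 9 belong to the thick filament, 16 to the thin filament, 12 to the Z-disc, titin and the cytoskeleton around them, 8 to calcium release and reuptake, and 2 to energy supply.

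The study labelled descendants of *Pax7*-expressing progenitors in mouse embryos and profiled them on 3 embryonic days (E12.5, E14.5 and E16.5). All cells of all groups carried Pax7CreER:R26R-stop-EYFP and were exposed to tamoxifen (75 µg/g, given to the mother at E9.5), so that YFP marks any cell in which *Pax7* drove Cre at that time, whatever it became later. Head, limbs and viscera were removed, embryos were pooled, and YFP+ cells were sorted for 10× (1 library per day) or for ss2 (1 cell per well, 15 plates). No group without tamoxifen or with another genotype was compared, and embryos cannot be told apart within a library. Beside these, 2 bulk libraries of Cd36+ cells sorted at E16.5, which are technical duplicates, are used.

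A sarcomere is the repeating contractile unit of striated muscle, in which thick filaments of myosin slide along thin filaments of actin that are anchored at Z-discs. Depolarization opens calcium release channels of the sarcoplasmic reticulum, calcium binds troponin C, and tropomyosin moves to expose the myosin binding sites on actin. Developing skeletal muscle uses embryonic, neonatal, cardiac and slow isoforms of many of these proteins before adult fast or slow isoforms take over, and myoblasts assemble sarcomeres after they leave the cell cycle and express *Myog*.

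Of 3916 deposited cells 3852 were kept, 2921 on 10× and 931 on ss2. The median count per cell was 2185, 5930 and 1607.5 UMIs (unique molecular identifiers) by day on 10×, and 393416, 769833 and 829590 expected counts on ss2. Of the 10× barcodes 3 occurred in more than 1 library. Cells were clustered without the 47 genes, and clusters were named from marker lists with the study's names for its classes. The early muscle (EM)-like class held 696 cells in 2 clusters. The late muscle (LM)-like class was 1 cluster, with 34, 90 and 41 cells by day on 10× and 14, 31 and 28 on ss2. *Myog*, which marks the onset of differentiation, stood at 1619, 3635 and 2823 counts in 1000000 (CPM) in LM-like cells against 244.7, 370.2 and 152.1 CPM in EM-like cells on 10×, and at 4058, 7019 and 6319.7 CPM against 111.6, 609 and 444.4 CPM on ss2. *Myog* was among the markers that named the LM-like class and was not kept out of the clustering. Its difference therefore describes how the class was named and is no separate evidence for the name. Markers of cardiac muscle were at or near 0 in both classes on 10×, with *Nppa* at 0 in every library, as was *Myh11* of smooth muscle, while *Acta2*, which developing skeletal muscle also expresses, was present. A pool below means 1 platform on 1 day, and triplets of values are in the order of day, with E12.5 first.

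The contraction genes were concentrated in LM-like cells. Together they made up 2.23, 2.10 and 1.82% of all counts of LM-like cells on 10× and 2.86, 2.97 and 2.97% on ss2. In EM-like cells they made up 0.170, 0.201 and 0.184% on 10× and 0.0998, 0.385 and 0.382% on ss2. The lowest LM-like pool was above the highest EM-like pool on each platform, and the share in EM-like cells was lowest in the ss2 pool at E12.5. Pericyte (PE)-like cells came next, with 0.0708% at E14.5 and 0.134% at E16.5 on 10× and 0.104% on ss2. Every other class stayed at or under 0.05% on 10×. In the median LM-like cell 26 of 45 members had a count on ss2 (range 14 to 39) and 14 of 47 on 10× (range 1 to 37). The median EM-like cell had 12 on ss2 and 3 on 10×. Cells on ss2 are read far deeper than on 10×, so these numbers are not comparable between platforms.

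**Figure D1:**
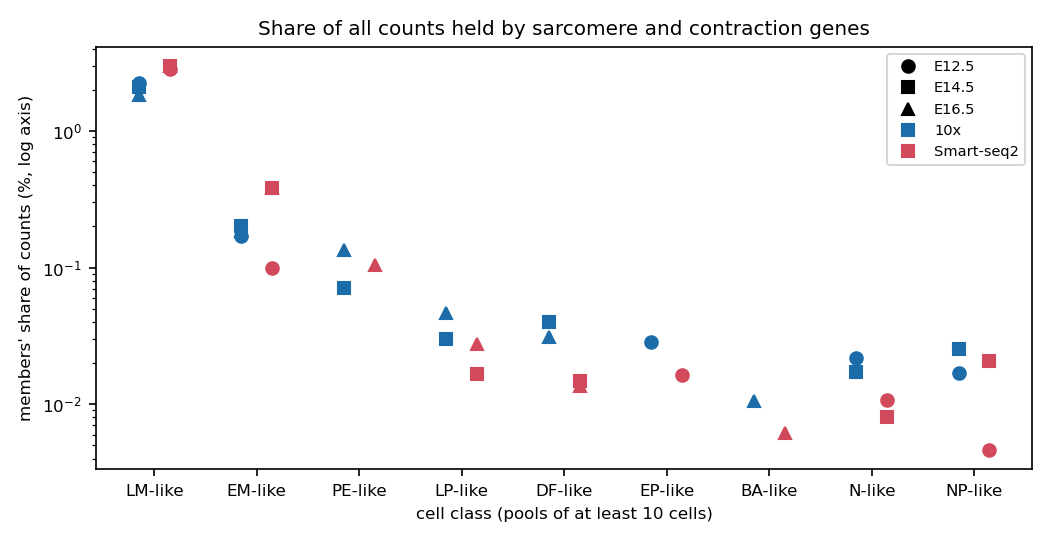
Share of all counts held by the 47 genes (%, log axis) in each cell class, with 1 point per pool of at least 10 cells and colours for the platforms. LM-like pools lie at 1.82 to 2.97%, EM-like pools at 0.0998 to 0.385%, and pools of the other classes at 0.134% or less.

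**Figure D2:**
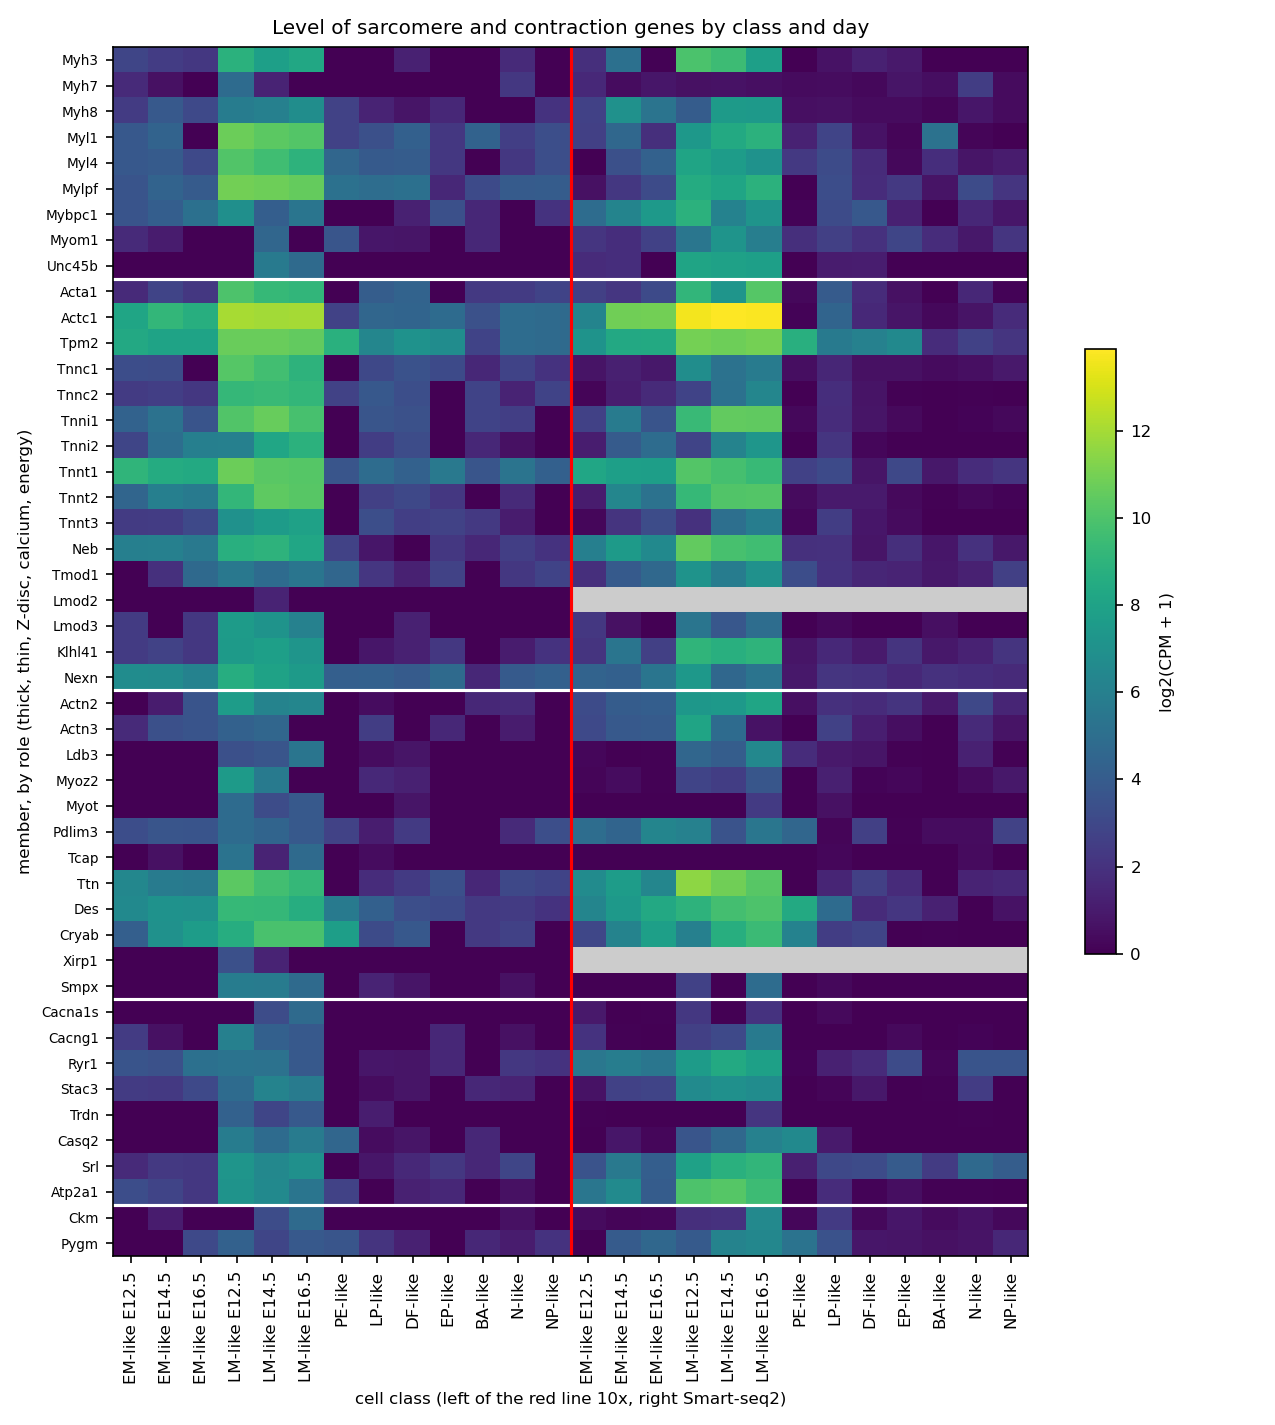
Level of each gene as log2(CPM + 1), with EM-like and LM-like cells split by day and the other classes summed over days. Columns left of the red line are 10× and right of it ss2, white lines separate the roles, and grey marks *Lmod2* and *Xirp1*, which the ss2 table does not list. The LM-like columns are bright for most genes, and *Tpm2*, *Tnnt1*, *Actc1*, *Des* and *Ttn* are also seen in EM-like columns.

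LM-like cells were compared with EM-like cells within pools, to ask which parts of the contractile apparatus separate differentiating myocytes from their progenitors. Of 44 genes that passed the filter on low counts 38 were higher in LM-like cells, none was lower and 6 did not pass the threshold (edgeR quasi-likelihood test, 6 pools, Benjamini-Hochberg adjusted p under 0.05). Among the 38, *Smpx* and *Myot* had no count in any EM-like sum. They passed the filter through LM-like sums alone and could only come out higher. *Ldb3*, *Casq2*, *Myoz2* and *Ckm* did not pass the filter when EM-like sums were fitted alone, nor did *Trdn* and *Cacna1s*, which were not called. These genes were kept mainly through LM-like sums and could hardly come out lower, so their calls are no separate support. In all, 12680 genes were tested and 18.7% of them were called, 7.58% as higher and 11.1% as lower. The median log2 fold change of the 44 was 4.56, against -0.15 over all genes tested. With *Smpx* and *Myot* alone set at their lower bounds it was 4.52. Of the 45 genes listed on both platforms, 30 were higher in LM-like cells in 6 of 6 pools. Such directions were not counted over all genes, so this count is no result about the members. Every thin filament gene tested was called (15 of 15, median log2 fold change 4.02), as were 7 of 9 thick filament genes (5.61), 8 of 10 genes of the Z-disc group (4.25), 6 of 8 calcium genes (4.71) and both energy genes (4.19). Although the 47 genes were kept out of the clustering, other genes that rise with them were not, so the classes are not independent of these levels and the p-values are too small. Since 10× has 1 library per day and ss2 plates were summed within a day, they measure the spread between pools and not between embryos.

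**Figure D3:**
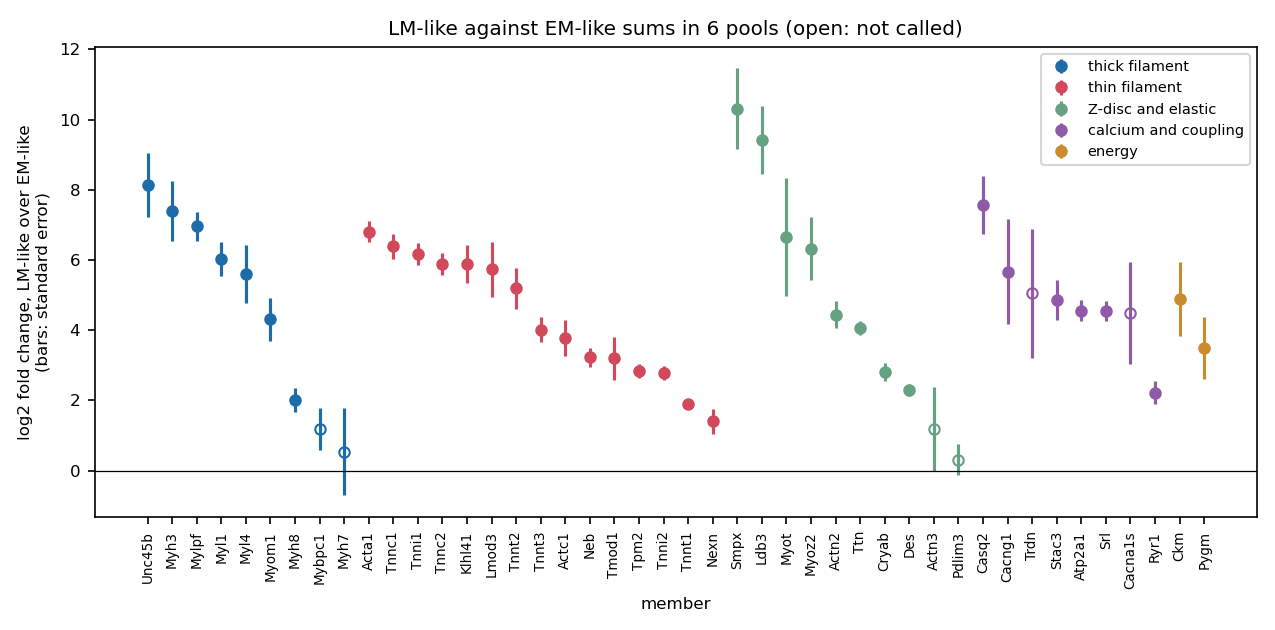
Log2 fold change of LM-like over EM-like sums for each gene tested, fitted over 6 pools, with bars for the standard error, colours for the roles and open symbols for genes that were not called. All points lie above 0, and the 6 open ones are *Trdn*, *Cacna1s*, *Actn3*, *Mybpc1*, *Myh7* and *Pdlim3*.

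Among thick filament genes the embryonic myosin heavy chain *Myh3* (GRCm38 chr11:67078300-67102291) stood at 455.9, 224.02 and 312.2 CPM in LM-like cells on 10× and at 978, 737 and 226.4 CPM on ss2. In EM-like cells it stood at 6.55, 4.46 and 3.71 CPM on 10× and at 2.60, 34.2 and 0.0398 CPM on ss2. The 10× value at E16.5 rests on 23 UMIs in 4 of 41 cells, and at equal depth per cell (thinned to 1000 UMIs) the LM-like values on 10× were 558.8, 155.6 and 76.9 CPM. No EM-like pool reached an LM-like pool, and the log2 fold change was 7.39 ± 0.854 (SE, edgeR adjusted p = 0.0001025). The neonatal heavy chain *Myh8* (chr11:67277124-67308634) differed less, at 55.8, 65.9 and 108.6 CPM and at 15.7, 186.03 and 178.7 CPM in LM-like cells against 4.37, 13.4 and 7.42 CPM and 5.52, 126.9 and 39.8 CPM in EM-like cells. At E16.5 on 10× it came from 2 cells, and at equal depth its LM-like values there were 88.2, 55.6 and 25.6 CPM. The ranges overlapped on ss2, where EM-like cells at E14.5 were above LM-like cells at E12.5, and the log2 fold change was 2.02 ± 0.332 (edgeR adjusted p = 0.001225). The slow heavy chain *Myh7* was scarce in both classes (at most 27.9 CPM) and was not called. These heavy chains are alike in sequence, so expected counts on ss2 may be divided among them with error.

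The light chains separated the classes on both platforms. *Mylpf*, the fast regulatory light chain, stood at 1898, 1797 and 1534 CPM on 10× and 373.2, 286.1 and 475.9 CPM on ss2 in LM-like cells, against at most 20.6 CPM in any EM-like pool (log2 fold change 6.96 ± 0.418, edgeR adjusted p = 1.452e-06). *Myl1*, the fast essential light chain, stood at 1731, 1339 and 1140.2 CPM and at 166.1, 344.02 and 474.9 CPM, against at most 23.5 CPM (6.03 ± 0.479, adjusted p = 7.796e-06). *Myl4*, the essential light chain of embryonic and atrial muscle, had its lowest LM-like value, 130.7 CPM, above its highest EM-like value of 18.5 CPM (5.61 ± 0.824, adjusted p = 0.0005405). At E16.5 on 10×, *Mylpf* was found in 10, *Myl1* in 15 and *Myl4* in 3 of 41 LM-like cells. *Unc45b*, a chaperone that folds the myosin head, was not seen in EM-like cells on 10× and reached at most 2.47 CPM there on ss2. In LM-like cells it stood at 0, 51.1 and 27.1 CPM on 10× and at 274.5, 245.8 and 227.6 CPM on ss2 (8.15 ± 0.914, adjusted p = 0.0001228). *Myom1*, which crosslinks myosin at the M-band, was also called (4.31 ± 0.620). The slow myosin-binding protein *Mybpc1* was not, since EM-like cells at E16.5 held 33.4 and 174.99 CPM of it, about as much as the 40.7 and 145.9 CPM of LM-like cells.

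For the thin filament, the 2 actin genes differed in their level in EM-like cells. *Acta1*, the skeletal α-actin of adult muscle (chr8:123891769-123894751), stood at 1023, 626 and 557 CPM in LM-like cells on 10× and at 568, 150.5 and 1183 CPM on ss2, against 2.18 to 7.55 CPM in EM-like pools. Its log2 fold change was 6.80 ± 0.302 (edgeR adjusted p = 2.824e-07). *Actc1*, the cardiac α-actin that embryonic skeletal muscle uses, stood at 4233, 3999 and 4113 CPM and at 12777, 14903 and 14248 CPM in LM-like cells. In EM-like cells it already stood at 286.2, 587 and 408.1 CPM on 10× and at 74.2, 1864 and 1902 CPM on ss2, with a log2 fold change of 3.78 ± 0.512 (adjusted p = 0.0003094). On each platform the groups did not overlap for either gene. The actins are nearly identical in their coding sequence, so their division on ss2 is uncertain, and the 10× counts come from the less alike 3′ ends.

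The troponins carry the calcium switch, with troponin C binding calcium, troponin I holding the filament off and troponin T tying the complex to tropomyosin. All 7 troponin genes were higher in LM-like cells, but they differed in how far EM-like cells already held them. *Tnnt1*, slow troponin T, stood at 544, 374.6 and 341.4 CPM in EM-like cells on 10× and 292.02, 224.1 and 220.4 CPM on ss2, against 1712, 1278 and 1167 CPM and 1145, 866 and 657 CPM in LM-like cells (log2 fold change 1.89 ± 0.114, edgeR adjusted p = 1.452e-06). *Tnnt2*, cardiac troponin T (chr1:135836354-135852260), stood at 21.8, 62.999 and 51.9 CPM and 1.06, 80.7 and 36.9 CPM in EM-like cells, against 577, 1387 and 1208 CPM and 630.2, 1110.1 and 1139 CPM in LM-like cells (5.20 ± 0.588, adjusted p = 8.721e-05). In every pool LM-like cells held more of both, and the fitted fold change of *Tnnt2* was the larger. *Tnnc1*, slow and cardiac troponin C (6.39 ± 0.360), *Tnni1*, slow troponin I (6.17 ± 0.318), and *Tnnc2*, fast troponin C (5.90 ± 0.310), were nearly absent from EM-like cells, where the highest value of the 3 was 53.8 CPM for *Tnni1* on ss2 at E14.5. The fast isoforms *Tnni2* and *Tnnt3* had log2 fold changes of 2.79 ± 0.198 and 4.02 ± 0.368.

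Among the remaining thin filament genes, *Tpm2* (β-tropomyosin) was high in both classes, at 1493 to 1675 CPM in LM-like and 263.1 to 329.9 CPM in EM-like cells on 10× (log2 fold change 2.83 ± 0.200). *Neb*, the giant ruler of the thin filament, had a log2 fold change of 3.23 ± 0.278, and *Tmod1*, which caps the pointed end, of 3.20 ± 0.622. *Klhl41* and *Lmod3*, which stabilise and lengthen thin filaments and are mutated in nemaline myopathy, had larger ones of 5.88 ± 0.540 and 5.73 ± 0.788. *Nexn*, an actin-binding protein, had the smallest call of the thin filament (1.40 ± 0.356, edgeR adjusted p = 0.016), and it was lost without the 10× pool at E12.5 or E14.5. *Lmod2* was found in LM-like cells at E14.5 (1.65 CPM) but in no other muscle pool on 10×.

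In the Z-disc group, *Ttn*, the giant spring that spans half-sarcomeres, stood at 1312, 807 and 611 CPM on 10× and 2955, 1889.7 and 1227 CPM on ss2 in LM-like cells, against 83.01, 53.5 and 48.2 CPM and 101.3, 205.2 and 80.6 CPM in EM-like cells (log2 fold change 4.06 ± 0.205, edgeR adjusted p = 5.08e-07). *Des*, the intermediate filament of muscle, was well expressed before differentiation, at 93.9, 131.02 and 126.2 CPM and 79.1, 177.2 and 331.3 CPM in EM-like cells, against 623, 605 and 393.7 CPM and 499.1, 835 and 1013 CPM (2.30 ± 0.180). LM-like cells exceeded EM-like cells in each pool for both. *Actn2*, the Z-disc α-actinin (4.44 ± 0.383), *Ldb3*, a Z-disc scaffold (9.42 ± 0.979), *Myoz2*, which tethers calcineurin (6.32 ± 0.905), and *Cryab*, a small heat shock protein that binds titin and desmin (2.81 ± 0.267), were also called. *Ldb3* and *Myoz2* had no UMI in EM-like cells on 10×. *Smpx*, a small protein of the costamere, had no count in EM-like cells on either platform and was at least 43.97-fold higher in LM-like cells on 10× and at least 495.5-fold higher on ss2, where the bound sets the EM-like sum at 3 counts. For *Myot*, myotilin, the same bounds were at least 9.65-fold and 66.6-fold (9 UMIs in LM-like cells on 10×), and its call (adjusted p = 0.03304) was lost without any 1 of the 10× pools. *Actn3* and *Pdlim3* were not called, *Tcap*, *Xirp1* and *Lmod2* were not tested, and *Tcap* stood at 37.2, 1.65 and 27.1 CPM in LM-like cells on 10× and at 0 on ss2.

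Of 8 calcium handling genes 6 were higher in LM-like cells and 2 were not called. *Atp2a1*, the fast calcium pump SERCA1, stood at 139.6, 93.9 and 40.7 CPM on 10× and 1011, 1167 and 728 CPM on ss2 in LM-like cells, against 8.74, 6.13 and 3.71 CPM and 42.9, 100.03 and 15.3 CPM in EM-like cells (log2 fold change 4.56 ± 0.294, edgeR adjusted p = 2.226e-06). *Casq2*, a calcium buffer of the sarcoplasmic reticulum, had no UMI in EM-like cells on 10× and stood at 55.8, 28.002 and 54.3 CPM in LM-like cells there (7.56 ± 0.825, adjusted p = 6.808e-05). Its 10× value at E16.5 is 4 UMIs in 1 cell. *Srl*, sarcalumenin of the reticulum lumen, had a log2 fold change of 4.56 ± 0.290, and *Stac3*, which the surface calcium channel needs in order to trigger release, of 4.86 ± 0.563. *Ryr1*, the release channel itself, had the smallest call of these, at 37.2, 36.2 and 13.6 CPM and 196.6, 344.8 and 237.2 CPM in LM-like cells against 10.9, 10.0 and 33.4 CPM and 43.96, 57.9 and 43.1 CPM in EM-like cells. On 10× at E16.5 the order was the other way round, and the call (2.22 ± 0.324, adjusted p = 0.0005086) was lost when 10× pools were fitted alone. *Cacng1*, the γ subunit of the surface calcium channel (5.67 ± 1.488, adjusted p = 0.01918), lost its call without the 10× pool at E14.5 or E16.5. The channel pore *Cacna1s* and the junctional protein *Trdn* were scarce, at most 27.1 and 18.6 CPM, and were not called.

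*Ckm*, muscle creatine kinase, which buffers ATP, stood at 0, 8.24 and 27.1 CPM on 10× and 2.62, 2.97 and 89.6 CPM on ss2 in LM-like cells, against at most 1.12 CPM in EM-like cells (log2 fold change 4.90 ± 1.056, edgeR adjusted p = 0.0079). *Pygm*, muscle glycogen phosphorylase, was also called (3.49 ± 0.886, adjusted p = 0.01629), and the call was lost without the 10× pool at E14.5. A wider list of 58 genes of sarcomere assembly, membrane and calcium handling was taken as the rest of the pathway. Of its 47 genes tested 26 were higher in LM-like cells, with *Hrc* (log2 fold change 8.27), which binds calcium in the reticulum, and *Mybph* (7.73), which binds myosin, among them. The slow α-tropomyosin *Tpm3* was the 1 gene lower (-0.98, edgeR adjusted p = 0.001516).

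Within the EM-like class on ss2, cells with a *Myog* count were set against cells without one, as a description. *Myog* was seen in 19 of 50, 20 of 57 and 17 of 58 EM-like cells by day. The 56 cells with it and those without it had median depths of 639640 and 679780 counts. Over 45 genes, the median share of cells with a count of the gene was 25% with *Myog*, 14.7% without it, and 61.6% in LM-like cells. *Tnni1* was found in 26.8% against 7.3% of them (91.8% of LM-like cells), *Ttn* in 71.4% against 33.9%, *Klhl41* in 42.9% against 17.4% and *Atp2a1* in 35.7% against 11.9%. Other genes ran the other way, with *Cryab* in 57.1% against 64.2%, *Pygm* in 3.6% against 22.9% and *Tnni2* in 28.6% against 34.9%.

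As most of these genes move together between the 2 muscle classes, their promoters were searched for motifs that muscle factors are known to bind. The RefSeq promoter table (GRCm38.p6) held 33 of the 47 genes, and the 250 bases before each start were read on both strands. The E-box CANNTG, bound by MyoD family and other factors, was in 27 of 33 promoters (81.8%), against 69.3% of 27025 genes. CAGCTG, the form of the E-box that MyoD and myogenin prefer and a subset of the first, was in 15 (45.5%) against 14.7%. The MEF2 site was in 5 (15.2%) against 3.42%, and the CArG box of serum response factor in 4 (12.1%, *Acta1*, *Actc1*, *Ldb3* and *Myom1*) against 1.62%. The promoters below show the skeletal α-actin, the cardiac troponin T and 2 heavy chains, the embryonic and the neonatal form, each from 5′ to 3′ on the gene's strand, with E-boxes, CArG boxes and MEF2 sites in capitals. They lie at chr8:123894776-123895025 (minus strand), chr1:135836084-135836333, chr11:67078050-67078299 and chr11:67276874-67277123 (plus strand).
*Acta1*: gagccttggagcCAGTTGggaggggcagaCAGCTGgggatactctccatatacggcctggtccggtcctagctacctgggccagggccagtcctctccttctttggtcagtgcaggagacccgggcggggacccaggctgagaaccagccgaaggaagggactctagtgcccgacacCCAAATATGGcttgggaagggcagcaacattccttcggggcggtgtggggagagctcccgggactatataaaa
*Tnnt2*: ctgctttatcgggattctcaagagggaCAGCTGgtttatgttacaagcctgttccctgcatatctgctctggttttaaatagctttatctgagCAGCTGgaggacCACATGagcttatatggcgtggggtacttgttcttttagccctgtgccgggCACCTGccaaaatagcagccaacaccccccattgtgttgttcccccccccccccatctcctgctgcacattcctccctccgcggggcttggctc
*Myh3*: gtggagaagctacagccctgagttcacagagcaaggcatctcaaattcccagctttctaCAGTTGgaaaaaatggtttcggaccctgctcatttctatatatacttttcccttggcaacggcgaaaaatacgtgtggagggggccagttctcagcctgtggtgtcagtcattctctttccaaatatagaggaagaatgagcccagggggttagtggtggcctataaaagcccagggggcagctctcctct
*Myh8*: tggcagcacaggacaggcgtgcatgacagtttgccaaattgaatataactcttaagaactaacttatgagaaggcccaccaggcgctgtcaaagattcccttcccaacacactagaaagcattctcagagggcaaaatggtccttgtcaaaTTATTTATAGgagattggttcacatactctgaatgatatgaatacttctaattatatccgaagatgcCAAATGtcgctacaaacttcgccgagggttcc
*Acta1* holds 2 E-boxes, 1 of them CAGCTG, and 1 CArG box. *Tnnt2* holds 4 E-boxes, of which 2 are CAGCTG. *Myh3* holds 1 E-box, and *Myh8* holds 1 E-box and 1 MEF2 site. A match describes the letters and does not show binding.

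Within LM-like cells, days were compared to ask how the myocytes changed as primary muscle gave way to later stages. Each day is 1 library on 10×, and each ss2 plate holds cells of 1 day. Day therefore cannot be told apart from library or plate, and the platforms are the only replicates of a day. The same limit holds for every comparison of days below. From E12.5 to E14.5, 5 of 43 genes tested rose and 1 fell, where 2.14% of 10711 genes were called (1.7% as higher and 0.439% as lower). The median log2 fold change of the 43 was 0.17, against 0.24 over all genes. *Tnni2*, fast troponin I (chr7:142441808-142444410), stood at 65.1, 289.9 and 475.1 CPM on 10× and at 6.15, 71.8 and 156.1 CPM on ss2, in order of day on both platforms, and rose by 3.36 ± 0.582 on the log2 scale to E14.5 (edgeR adjusted p = 8.837e-06). *Cryab* (chr9:50751325-50756636) stood at 390.8, 957 and 937 CPM and at 63.9, 411.2 and 693 CPM (2.33 ± 0.442, adjusted p = 6.938e-05). *Tnnt2* stood at 577, 1387 and 1208 CPM and at 630.2, 1110.1 and 1139 CPM (1.39 ± 0.393, adjusted p = 0.02638). In all 3 the E12.5 pool was the lowest on its platform. At equal depth per cell this held too, but the spacing changed, with *Tnni2* at 117.6, 300 and 282.1 CPM on 10× and at 21.4, 70.97 and 134.4 CPM on ss2. *Myh8* (2.72 ± 0.679, adjusted p = 0.006346) and *Tnnt3*, fast troponin T (2.41 ± 0.608, adjusted p = 0.007645), also rose. At equal depth *Tnnt3* stood at 205.9, 155.6 and 153.8 CPM on 10×, with E12.5 the highest, and at 15.7, 29.03 and 47.4 CPM on ss2, and *Myh8* was highest at E12.5 on 10×. These equal-depth values come from 1 random draw and rest on few UMIs. Even at full depth the 10× pool at E12.5 held 14 UMIs of *Tnnt3* and 6 of *Myh8* in LM-like cells. Thinning also gives each cell the same weight, so effects of depth and of weighting cannot be told apart. *Mybpc1* (chr10:88518279-88605152) fell by 2.52 on the log2 scale (SE 0.580, adjusted p = 0.002384), from 120.95 to 16.47 CPM on 10× and from 471.5 to 69.8 CPM on ss2, and stood at 40.7 and 145.9 CPM at E16.5. The ss2 pool at E12.5 holds 14 LM-like cells, and without it none of these 6 calls held, with 1 residual degree of freedom left.

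From E14.5 to E16.5 in LM-like cells, 1 of 43 genes fell and none rose, where 0.327% of genes were called (0.0467% as higher and 0.28% as lower), and 7 of the 43 had an unadjusted p under 0.05. *Actn3*, the fast fibre α-actinin (chr19:4861216-4877909), stood at 18.6, 23.1 and 0 CPM on 10× and at 276.7, 27.8 and 0.575 CPM on ss2. It was found in 8 of 14, 7 of 31 and 1 of 28 LM-like cells on ss2, and its 10× values rest on 2, 14 and 0 UMIs. It fell by 6.21 on the log2 scale (SE 1.041, edgeR adjusted p = 2.642e-05), a call that DESeq2 did not make and that was lost without the ss2 pool at E16.5. *Ckm* had a log2 fold change of 3.88, which did not pass (edgeR adjusted p = 0.0756). Directions were alike on both platforms for 24 of 45 genes between E12.5 and E14.5 (10 higher, 14 lower) and for 25 between E14.5 and E16.5 (13 higher, 12 lower). They were split or tied for 21 and 20, with *Tcap* among those tied on ss2. This agreement was not counted over all genes, so it is no result about the members. In the wider pathway list, *Jsrp1* (log2 fold change 3.52), *Cav3* (3.46), *Klhl40* (2.68) and *Bin1* (1.46), genes of the triad, the membrane and filament stability, rose from E12.5 to E14.5, and no gene of the list was called from E14.5 to E16.5, where 9 had an unadjusted p under 0.05.

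The isoform makeup of LM-like cells differed by day within several families. These shares are of counts and are not corrected for transcript length, so that a gene's share can be followed over days on 1 platform but not set against other platforms. Fast *Tnni2* made up 5.60, 15.3 and 34.3% of troponin I counts on 10× (95% exact intervals 2.28 to 11.2, 13.2 to 17.5 and 25.2 to 44.4%) and 0.902, 4.62 and 9.98% on ss2, with slow *Tnni1* the rest. Its 10× intervals did not overlap between days. Cardiac *Tnnt2* made up 23.8, 48.4 and 46.1% of troponin T counts on 10× (18.8 to 29.5, 46.1 to 50.8 and 38.9 to 53.4%) and 35.4, 55.3 and 61.5% on ss2, while slow *Tnnt1* went from 70.8 to 44.6% and from 64.4 to 35.4% between E12.5 and E16.5. Fast *Tnnc2* made up 33.7, 45.7 and 54.4% of troponin C counts on 10× and 5.21, 49.1 and 60.2% on ss2. For *Tnnt2* and *Tnnc2* the 10× intervals of E12.5 lay below those of E14.5 and E16.5, and the intervals of the last 2 days overlapped. At E16.5 on 10× the troponin C counts came from few cells, with *Tnnc1* in 2 and *Tnnc2* in 4 of 41. The intervals cover counting error only and take UMIs of 1 cell as independent.

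Among heavy chains, neonatal *Myh8* took 10.3, 22.6 and 25.8% on 10× and 1.58, 20.1 and 44.1% on ss2, and embryonic *Myh3* took 84.5, 76.8 and 74.2% and 98.4, 79.8 and 55.8%. On 10× all 3 intervals of *Myh8* overlapped (3.89 to 21.2, 16.7 to 29.5 and 11.9 to 44.6%), and at E16.5 they rest on 31 heavy chain UMIs. *Myl1* took 38.1, 62.8 and 78.4% of essential light chain counts on ss2, with *Myl4* the rest, but 61.2, 62.9 and 70% on 10×. *Actc1* took 80.5 to 88.1% of actin counts on 10× and 92.3 to 99% on ss2, with no order by day that the platforms shared. In EM-like cells the share of *Tnni2* in troponin I was 25, 45.9 and 85% on 10× and 17.1, 21.5 and 72.2% on ss2. It was above the LM-like share in every pool, on as few as 12 troponin I UMIs at E12.5.

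**Figure D4:**
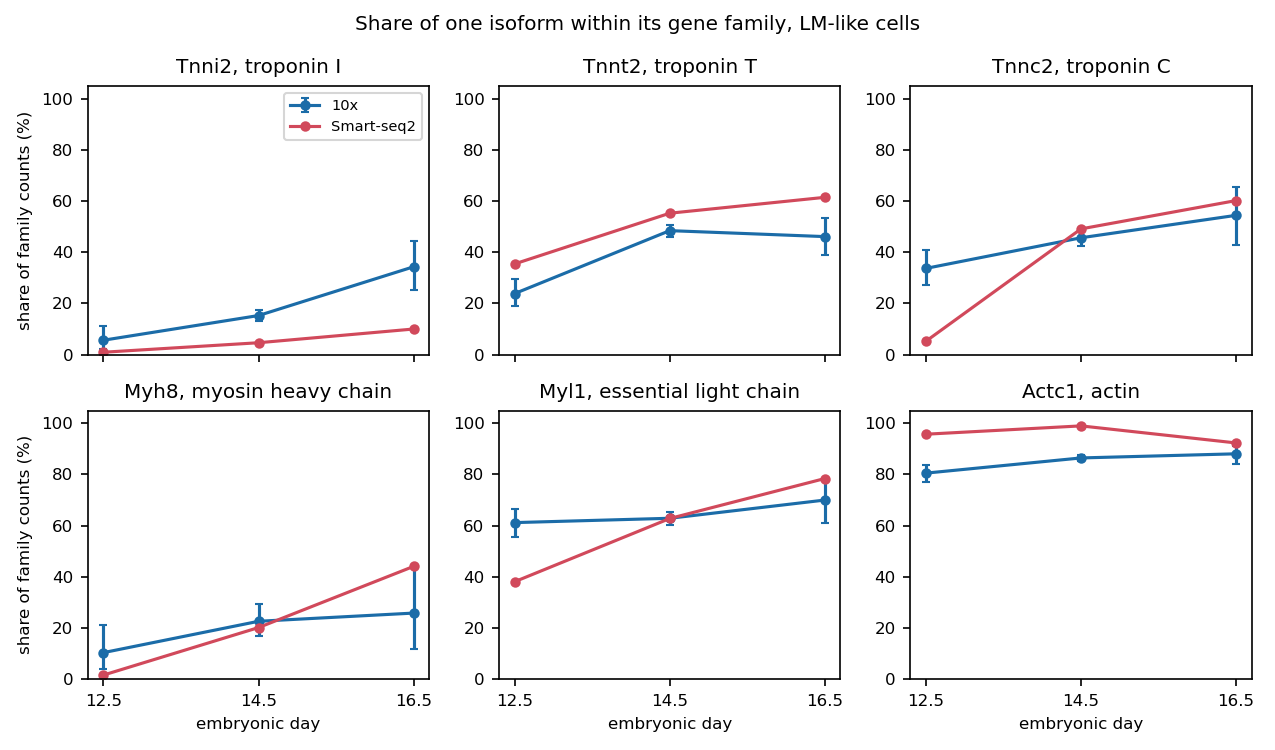
Share (%) of 1 isoform in the counts of its family against embryonic day in LM-like cells, with blue for 10× (bars for exact 95% intervals) and red for ss2 (no interval). The shares of *Tnni2*, *Tnnc2*, *Myh8* and *Myl1* are in order of day on both platforms, that of *Tnnt2* is lowest at E12.5 on both, and *Actc1* has no shared order.

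Within EM-like cells, 9 of 36 genes tested rose from E12.5 to E14.5 and none fell, where 4.68% of 12580 genes were called (2.93% as higher and 1.75% as lower). The median log2 fold change of the 36 was 1.34, against 0.11 over all genes. Cells of this class came from 2 clusters whose makeup follows the pools. The first held all but 4 of the cells at E12.5 and all but 5 of those at E16.5 on 10×, and all but 3 of those at E12.5 on ss2. The second held all but 3 of the cells at E14.5 on 10×, and all but 7 of those at E14.5 and all 58 at E16.5 on ss2. Median depth differed too, at 2426.5, 8168 and 1723 UMIs on 10× and 226893, 760062 and 882089 counts on ss2. Their part in these day differences was not tested.

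*Tnnt2* stood at 21.8 and 62.999 CPM at E12.5 and E14.5 on 10× and at 1.06 and 80.7 CPM on ss2, so that E14.5 was higher on both (log2 fold change 4.70 ± 0.590, edgeR adjusted p = 1.569e-12). *Cryab* stood at 17.5, 125.998 and 200.4 CPM and at 6.77, 71.5 and 224.9 CPM, in order of day on both platforms (3.54 ± 0.465, adjusted p = 1.678e-11). *Tnni2* stood at 6.55, 31.2 and 63.1 CPM and at 1.12, 14.8 and 29.4 CPM, again in order of day on both (3.55 ± 0.643, adjusted p = 5.009e-06). *Actc1* (2.74 ± 0.392, adjusted p = 1.384e-09), which at equal depth per cell stood at 260.4 and 1999.7 CPM on ss2 in place of 74.2 and 1864 CPM, *Myh8* (4.27 ± 0.636, adjusted p = 7.956e-09), *Tnni1* (2.64 ± 0.570, adjusted p = 0.0002594) and *Myl4* (3.71 ± 1.027, adjusted p = 0.01109) also rose. *Klhl41* (3.08 ± 0.865, adjusted p = 0.01314) rested mostly on a single cell, which held 90.7% of its ss2 count at E14.5. Most of the *Tnni1* count in that pool also came from 1 cell, and its call was lost without the pool and with members in the clustering. *Pygm* (8.13 ± 1.479, adjusted p = 5.615e-06) had 64.2% of its ss2 count at E14.5 in 1 cell and 0 UMIs on 10× at E12.5 and E14.5. Its log2 fold change was -1.50 without the ss2 pool at E14.5. Without the ss2 pool at E12.5 none of the 9 calls held, and the lowest log2 fold changes over all alternatives were 2.82 for *Cryab*, 2.44 for *Tnni2*, 1.93 for *Myh8*, 1.91 for *Tnnt2*, 1.18 for *Tnni1*, 1.10 for *Actc1*, 0.32 for *Klhl41* and 0.061 for *Myl4*. The call of *Myl4* was lost in 6 of 14 alternatives. In the wider pathway list 8 genes rose, with *Cav3* (10.23), *Klhl40* (4.81) and *Jsrp1* (3.56) among them.

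From E14.5 to E16.5 in EM-like cells, 4 of 36 genes fell and none rose, where 1.77% of genes were called (0.715% as higher and 1.06% as lower). The 4 were *Myh3* (log2 fold change -8.00 ± 1.405, edgeR adjusted p = 9.383e-06), *Myl1* (-3.00 ± 0.785, adjusted p = 0.01606), *Atp2a1* (-2.26 ± 0.605, adjusted p = 0.01958) and *Tnni1* (-1.86 ± 0.538, adjusted p = 0.03761). Each rested on the ss2 pool at E14.5, where 1 of 57 cells held 87.2% of the *Myh3* count, 70.4% of *Myl1*, 57.2% of *Atp2a1* and 62.6% of *Tnni1*. On 10× *Myh3* stood at 4.46 and 3.71 CPM on these days, which counting error does not separate. Without that ss2 pool no gene of the 47 was called, nor without the ss2 pool at E16.5. *Cryab* had a log2 fold change of 1.30, just outside the threshold (edgeR adjusted p = 0.0545). Of the wider list *Klhl40* (3.82) and *Fhl1* (3.01) rose. Directions were alike on both platforms for 25 of 45 genes from E12.5 to E14.5 (19 higher, 6 lower) and 23 from E14.5 to E16.5 (10 higher, 13 lower). Here too the agreement was not counted over all genes.

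**Figure D5:**
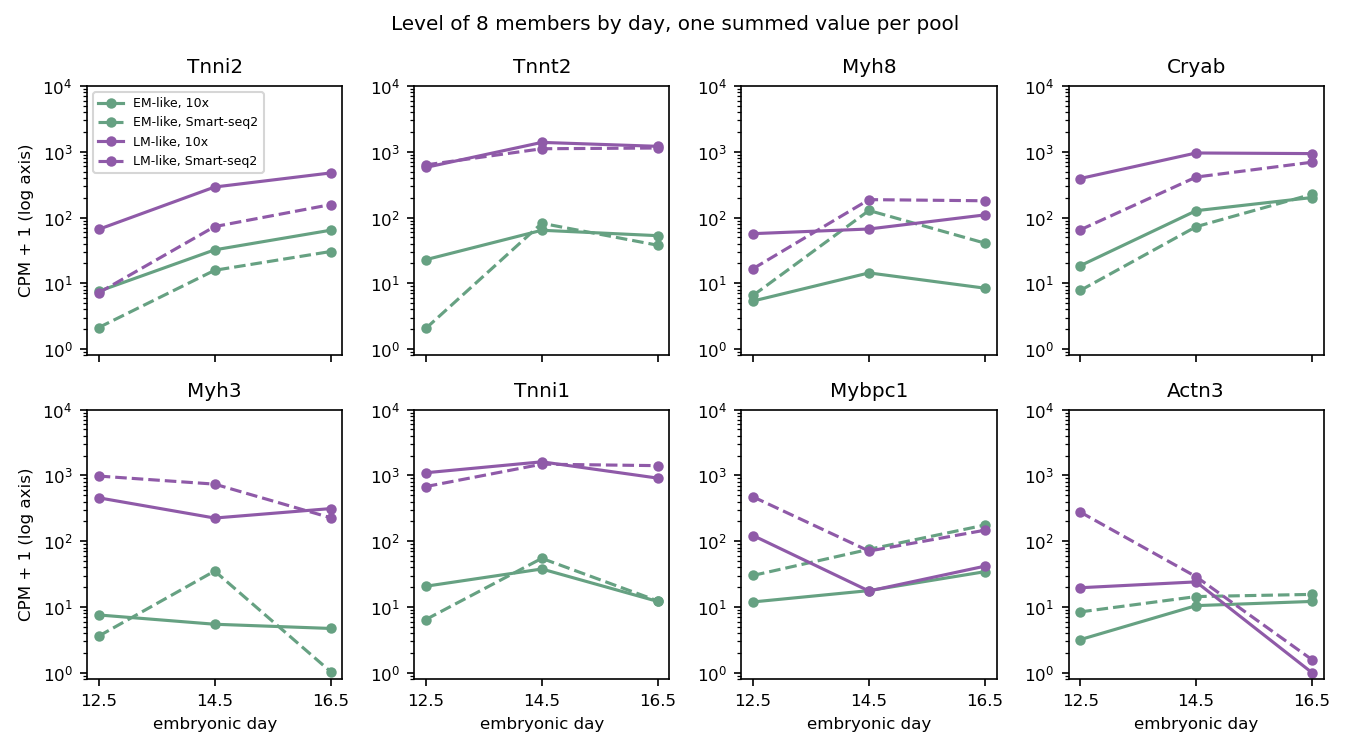
Level (CPM + 1, log axis) of 8 genes against embryonic day, with 1 summed value per pool, green for EM-like and purple for LM-like cells, solid lines for 10× and broken lines for ss2. *Tnni2* is in order of day in all 4 lines, *Cryab* has its lowest value at E12.5 in all 4, *Mybpc1* falls from E12.5 to E14.5 in LM-like cells, and *Actn3* is lowest at E16.5 in LM-like cells.

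Outside the muscle classes the levels of the genes were low, with exceptions in PE-like cells. For genes at 100 CPM or more in LM-like cells on 10×, the median level in another class was 0 to 1.64% of that in LM-like cells of the same day. *Tpm2* in PE-like cells was the highest, at up to 40.6%. It stood at 438.8 CPM in PE-like cells on 10× (found in 60.5% of 43 cells) and 435.1 CPM on ss2 (86.7% of 15 cells), and it is a tropomyosin that smooth muscle also uses. PE-like cells also held *Cryab* (219.4 and 70.6 CPM) and *Des* (51.96 and 346.02 CPM), and *Casq2* at 95.3 CPM on ss2, in 40% of cells. On 10× *Casq2* rested on 4 UMIs in 3 PE-like cells (23.1 CPM), with none at E16.5. Dermal fibroblast (DF)-like cells held 131.4 and 66.03 CPM of *Tpm2* on 10× and ss2, early progenitor (EP)-like cells 105.7 and 95.3 CPM and late progenitor (LP)-like cells 80.9 and 50.5 CPM. Cells outside muscle with 10 or more of the genes numbered 2 of the DF-like (1 of them a doublet call), 4 of the LP-like and 1 of the neuron-like cells on 10×. On ss2 they numbered 30 of the LP-like, 6 of the DF-like, 3 of the EP-like, 2 of the neuron-like, 2 of the PE-like and 1 of the BA-like cells.

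Brown adipocyte (BA)-like cells, which share a progenitor with muscle, held 0.0105% of their counts in these genes on 10× and 0.00616% on ss2. *Myl1* was the highest member, at 19.4 CPM on 10× (10 UMIs, in 6.3% of cells). At E16.5 on 10× its level in BA-like cells, 19.8 CPM, lay between the 23.7 CPM of DF-like and the 15.9 CPM of LP-like cells. Over all days on 10× it was found in 1.46% of DF-like and 3.37% of LP-like cells. *Myl1* stood at 37.01 CPM on ss2, where 8 of 15 cells (53.3%) had it and 1 cell held 81.9% of the count. On ss2 it was found in 3.31% of DF-like, 14.8% of LP-like and 0.935% of neuron-like cells. In the bulk Cd36+ libraries, sorted as Pdgfra- Cd36+ and with 4576 and 3935 CPM of *Fabp4*, the 47 genes made up 0.0102 and 0.0104% of 24862787 and 32947290 counts. *Myl1* was again the highest member, at 19.7 and 13.1 CPM, followed by *Neb* (9.13 and 8.89 CPM), *Des* (6.56 and 10.8 CPM), *Srl* (5.75 and 8.56 CPM) and *Actc1* (6.03 and 8.23 CPM). *Myog* stood at 0.603 and 1.15 CPM and *Myod1* at 0 and 0.212 CPM in these libraries, and no count was found for *Myot* or *Cacna1s*. In bulk RNA, fewer cells of a type and less RNA per cell cannot be told apart, and since the 2 libraries are technical duplicates their spread says nothing of embryos.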

How the data were processed

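The 10× table holds raw counts (UMIs) per gene and cell, as deposited by the authors from Cell Ranger, without scaling. The ss2 values are expected counts, made by the authors with kallisto 0.44.0 and brought to genes with tximport. They were rounded after summing over cells. The bulk table holds raw read counts per gene, as deposited by the authors, and its aligner settings are not given in the sources used here. Of its columns 2 (Cd36+) were used, and 16 were not used because their names match more than 1 sample.

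Cells were kept at a YFP count above 0, at most 8% mitochondrial counts, at least 4000 genes (ss2) and at most 15000 UMIs (10×). Tables were integrated on the 15147 shared genes with Seurat 5.3.0 in R 4.3.3 (canonical correlation, 2000 variable genes, 30 components, Louvain resolution 0.8), leaving out 116 genes (the members, the wider pathway list, and smooth and cardiac muscle genes), of which 106 are in both tables. Clusters were named from marker lists (mean z-score at least 0.8, at least 3 markers each in at least 5% of cells). Doublets were called with Scrublet in scanpy 1.11.5 (6, 4 and 7 cells) and kept. Raw counts were summed per class and pool (at least 10 cells) and compared with edgeR 4.0.16 (filterByExpr, TMM, quasi-likelihood test, Benjamini-Hochberg adjustment over all genes tested, threshold 0.05). LM-like and EM-like sums were compared with the pool as block (12 sums, 5 residual degrees of freedom), since both come from the same sorted cells, and days within a class with platform and day as terms (6 sums, 2 residual degrees of freedom). CPM are of all counts of a class in a pool. A lower bound on a fold sets a sum of 0 at 3 counts. Gene positions are from GENCODE vM21. Python 3.11.15 with numpy 2.4.6, pandas 2.3.3, scipy 1.17.1 and matplotlib 3.10.9 was used for the rest.

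The members, lists, comparisons and tests were chosen with earlier results of these data known. Named genes are members, described by role, and genes of the wider list with large changes, of which 1 is not reported here. The tests were tried on simulated data with known changes. The changed genes were drawn only from the better expressed ones, above the level of *Myot*, *Trdn* and *Cacna1s*, so recovery of scarce members was not measured. For LM-like against EM-like sums (12113 genes) it recovered 13.4, 55.2 and 92.4% of genes changed by 1, 2 and 4 on the log2 scale, with 9.32% false calls. For days in EM-like sums (11904 genes) it recovered 1.49, 67.2 and 95.4%, with 6.09% false calls, and for days in LM-like sums (9729 genes) 1.54, 19.4 and 77.8%, with 12.5%. Alternatives were DESeq2 1.42.0, RLE size factors, no filter on low counts, at least 20 cells per sum, resolutions of 0.4 and 1.2, members kept in the clustering, doublets removed, 10× pools only, no block, each pool left out in turn, and cells thinned to 1000 UMIs or 100000 counts. Thinning was 1 random draw per cell, weighted cells alike and left out cells below that depth. The bulk comparisons that need the other columns were not analysed here.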

Additional observations from a re-analysis of the deposited data

Results flagged for a closer look

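Day effects that differed between LM-like and EM-like cells were tested as an interaction of class and day in edgeR (12 sums, 3 residual degrees of freedom), a test chosen after the day results had been seen. Values are the log2 day effect in LM-like cells minus that in EM-like cells, with Benjamini-Hochberg adjusted p over all genes. The composition of the EM-like class by cluster and its depth differ between these pools, as given above, and their part was not tested.

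From E12.5 to E14.5, 11 of 44 members differed, where 2.64% of 12680 genes did, and all 11 values were negative. *Mybpc1*, at -3.95 (adjusted p = 2.649e-05), fell in LM-like cells while its level in EM-like cells went from 10.9 to 16.7 CPM on 10× and from 29.1 to 74.2 CPM on ss2, and it was called in all 6 fits that leave out a pool. *Tnnt2* differed by -4.02 (adjusted p = 0.0001788), *Myh3* by -3.50 (0.0003784), *Mylpf* by -2.58 (0.0008657), *Klhl41* by -3.20 (0.0009099), *Actc1* by -2.84 (0.001346) and *Myl4* by -4.80 (0.001363). *Actn3* differed by -3.93 (adjusted p = 0.00367), *Tmod1* by -3.46 (0.0117), *Tnni1* by -1.56 (0.01264) and *Pygm* by -5.60 (0.02285). In the ss2 pool at E14.5, 1 cell held most of the EM-like count of *Myh3*, *Klhl41*, *Tnni1* and *Pygm*, and each lost its call without that pool. Without the ss2 pool at E12.5, *Mybpc1* was the 1 member of these still called.

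From E14.5 to E16.5, 6 of 44 members differed, where 0.489% of genes did. *Myh3* (6.80, adjusted p = 5.776e-06), *Unc45b* (8.18, adjusted p = 0.0008492), *Myl1* (2.76, adjusted p = 0.007642), *Klhl41* (2.51, adjusted p = 0.02816) and *Tnni1* (1.72, adjusted p = 0.02412) had the higher effect in LM-like cells. For *Unc45b* the EM-like counts were 0 on 10×, came from 1 of 57 cells on ss2 at E14.5 and were 0 at E16.5, so the fitted value is no measure of size. In that ss2 pool at E14.5, 1 cell also held most of the EM-like count of *Myh3*, *Myl1*, *Klhl41* and *Tnni1*, as given above. *Actn3* (-5.87, adjusted p = 0.0006381) had the lower. Without the ss2 pool at E16.5 no member was called, and without that at E14.5 1 was.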

How the results depend on the processing

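The comparison of LM-like with EM-like cells kept no member lower and between 29 and 39 higher under every alternative run. Without the replicate block for the pool, 29 members and 7.64% of all genes were called instead of 38 and 18.7%, and *Tnni2*, *Cryab*, *Myh8*, *Nexn* and *Pygm* lost their calls, while *Ckm*, *Myot*, *Myoz2* and *Smpx* did not pass the filter on low counts. With 10× pools only it was 30 members, as *Ryr1* lost its call and 7 others did not pass the filter. Leaving out each pool in turn gave 34 to 39 members and 12.25 to 24.6% of genes. This comparison is paired by pool. For the bulk libraries no paired analysis was possible because the columns that carry replicate numbers could not be mapped, and within a class the day comparisons hold no pairs beyond the platform.

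The day comparisons depend on the tool and on single pools. In EM-like cells from E12.5 to E14.5, DESeq2 called 2.36% of genes (4.68% with edgeR), and leaving out a pool gave 0.0925 to 5.585% of genes and 0 to 13 members higher. From E14.5 to E16.5, DESeq2 called 0.362% (1.77%) and 1 member lower (4), members in the clustering gave 0 lower and 1 higher, and RLE size factors and resolution 0.4 each gave 1 higher. Leaving out a pool gave 0 to 2.915% of genes, 0 to 2 members higher and 0 to 3 lower. In LM-like cells from E12.5 to E14.5, DESeq2 called 0.713% (2.14%) and 3 members higher (5), RLE size factors gave 3 lower (1), and at least 20 cells per sum, which drops the ss2 pool at E12.5, gave 0.0118% and 0 members. Leaving out a pool gave 0.0118 to 4.05% of genes, 0 to 7 members higher and 0 to 5 lower. From E14.5 to E16.5, DESeq2 called 0.00934% (0.327%) and 0 members, RLE size factors gave 2 members higher, and at least 20 cells per sum gave 0.13% and 1 member higher. Leaving out a pool gave 0.0114 to 0.536% of genes, 0 to 3 members higher and 0 to 1 lower. The interaction with class, whose leave-outs were also chosen after seeing the data, ranged over 0 to 1 higher and 1 to 17 lower for the first interval and over 0 to 9 and 0 to 3 for the second. *Pygm* reversed without the ss2 pool at E14.5. Over the fits that leave out a pool its first day effect ran from -1.50 to 8.47 in EM-like cells, and its interaction from -8.88 to 1.65. In EM-like cells *Pygm* had 0 UMIs on 10× at E12.5 and E14.5, and 1 and 864 counts on ss2. Without the ss2 pool at E14.5 its first day effect there rests on 0 UMIs and 1 count and is no measure of size. The cause of the reversal was not tested. Removing doublets or using resolution 1.2 moved no call.

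At equal depth the members' share of counts was 2.34, 1.96 and 1.41% in LM-like cells on 10× and 3.08, 3.06 and 2.94% on ss2, and in EM-like cells 0.192% at E14.5 on 10× and 0.165, 0.380 and 0.363% on ss2. With 1 library per day on 10× and at most 1723 median UMIs per muscle cell at E16.5, members under about 100 CPM rest on few UMIs, and genes not called there may differ by less than this depth shows.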
